A study of Caenorhabditis elegans with 43 samples.

Results

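The histone genes of *C. elegans* were examined here as places where small RNAs map. They were taken from the small RNA count table as every protein-coding gene whose name begins with *his-*, which gave 72 genes of 46904 annotated features, 20191 of them protein-coding. The small RNA libraries were made from whole worms grown at 20°C and fall into 4 groups. At the later time, gravid adults at 72 hr, in oogenesis, there were 3 libraries of *snpc-1.3(2xtbs)*, labelled as the allele *xk36*, in which 2 TRA-1 binding sites of the *snpc-1.3* promoter on chromosome V are mutated, and 3 libraries of N2, the wild type (WT). At the earlier time, L4 larvae at 48 hr, in spermatogenesis, there were 2 libraries of the loss-of-function allele *xk27*, called *snpc-1.3(-)*, and 3 libraries of WT. As labelled, *xk36* also carries a 3xflag tag on *snpc-1.3a*, which N2 lacks, whereas the strain list uses the name *snpc-1.3(2xtbs)* for an untagged allele, *xk29*. Which of these was sequenced is not settled here, and if it was *xk36*, tag and promoter mutation cannot be told apart. The libraries of each time point shared one flow cell, so that stage and flow cell cannot be told apart, and in whole worms fewer cells of a type and less RNA per cell cannot be told apart. The replicates are numbered in the labels and called biological in the study's legends, but neither says how they were grown apart, and p-values measure the spread between these libraries. ChIP-seq had 2 replicates per strain. At 48 hr *snpc-1.3::3xflag* was compared with untagged N2. At 72 hr N2 was compared with *3xflag::tra-1*, alone or with 1, 2 or 3 TRA-1 sites of the *snpc-1.3* promoter mutated.

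Histones package DNA. The core histones H2A, H2B, H3 and H4 form the nucleosome, H1 binds the linker DNA between nucleosomes, and H3.3 replaces H3 outside DNA replication. Most core histone genes of *C. elegans* lie in clusters as many near-identical copies, and their mRNAs are made for DNA replication, of which the germline has much. Germline mRNAs are templates for 22G-RNAs, short antisense RNAs made by RNA-dependent RNA polymerases and loaded onto Argonautes such as CSR-1, which in worms is known to act in the maturation of histone mRNAs. piRNAs, bound by the Argonaute PRG-1, trigger 22G-RNAs on many of their targets, and histone mRNAs are known to gain 22G-RNAs in worms without PRG-1. SNPC-1.3 is needed for transcription of the piRNAs of the male germline, and TRA-1, a regulator of sexual fate, represses *snpc-1.3* during oogenesis.

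By class there were 17 H2A, 17 H2B, 15 H3, 16 H4 and 5 H3.3 genes, *his-24* as the only H1 gene among them, and *his-73*, which was left without a class. By chromosome, 27 lay on V, 22 on IV, 14 on II, 4 on X, 3 on III and 2 on I, and 13 of the 14 on II lay within II:13817759-13828697 (WBcel235). These genes share much of their sequence. The 72 genes have 51 distinct coding sequences in RefSeq, and 35 of them belong to 14 groups with identical coding sequences, such as *his-9*, *his-13* and *his-25* (H3), *his-10*, *his-14* and *his-26* (H4), *his-19*, *his-21*, *his-51* and *his-53* (H2A), and *his-20*, *his-22*, *his-52* and *his-54* (H2B). Of all 22-nt windows in the coding sequences of the 72 genes, untranslated exons not included, 22.6% occurred at 1 place in the genome, and 35 genes had no such window at all. The share was 93.4% for H1 and 88.4% over the H3.3 genes, against 22.8% for H4, 13.5% for H3, 13.2% for H2A and 12.1% for H2B. A read was reported at up to 5 places and counted at each, so that the copies of a sequence shared their reads and are not independent measurements, and in 15 genes over 50% of the windows occurred at more than 5 places.

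The degree of sharing differs between the genes on which the results below turn, and is seen in 30 coding bases, 61 to 90 counted from the start codon, of H3 and H3.3 genes. The lines below are read 5′ to 3′ on the coding strand, and capitals mark bases that differ from *his-9*.
his-9: ttggccaccaaggctgcccgtaaatcggct
his-42: ttggccaccaaggctgcccgtaaatcggct
his-45: ttggccaccaaAgctgcccgCaaatcggct
his-2: CtggccaccaaggcAgcTcgCaaGtcTgct
his-74: CtggcGacGaaggcGgcTcgCaaGtcggcC
his-70: ttggcGacGaaggctgcTcgtaaGGTTTTC
The first, at II:13823708-13823737 (plus strand), is identical in *his-9*, *his-13*, *his-25* and *his-42*, the 4 H3 genes of the cluster on II, and each 22-nt window of it occurs at those 4 places only. The copy in *his-42* lies at II:13828608-13828637 (minus strand). The stretch of *his-45*, at IV:11326648-11326677 (plus strand), differs at 2 bases and is shared with *his-55* and *his-63*. Those of *his-2* (V:16042194-16042223, minus strand), *his-74* (V:12660237-12660266, minus strand) and *his-70* (III:4060030-4060059, minus strand) differ at 6, 8 and 10 bases and occur once in the genome. A stretch common to many genes is shown for contrast.
his-9, coding bases 31 to 60: tcgaccggaggaaaggctccaagaaagcaa
his-20, coding bases 61 to 90: ccaaaggacggaaagaagagacgtcatgcc
The H3 stretch (II:13823678-13823707, plus strand) is held by 8 of the histone genes and the H2B stretch (V:8895383-8895412, minus strand) by 14, and their windows occur at 8 to 15 and 14 to 15 places. A small RNA from the first set of lines can be traced to 1 gene or to a few, and one from the last pair cannot.

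The libraries held 4336397 to 22346249 counts in all, of which 921 to 9076 fell on histone genes. Replicate 1 of *snpc-1.3(2xtbs)* stood apart, with 1.45% of its counts on protein-coding genes, against 3.28% to 5.23% in the other 10 libraries. The *snpc-1.3* gene itself had at most 0.601 CPM (counts per 1000000) in any library, too few to check the genotypes. The 3 piRNAs that served the study as examples of the male class had 1.16 to 7.07 CPM in *snpc-1.3(-)*, against 15.6 to 35.1 CPM in WT at 48 hr, and 3.91 to 18.2 CPM in *snpc-1.3(2xtbs)*, against 2.12 to 7.24 CPM in WT at 72 hr, which fits the labels. CPM here are scaled by TMM, a normalisation that takes most features as unchanged, unless they are called unscaled.

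Small RNAs on histone genes made up a larger share of the library in oogenesis. As unscaled CPM of all counts they had 434, 463 and 428 in WT at 72 hr, against 207, 252 and 212 in WT at 48 hr, or 442 ± 18.6 against 224 ± 24.5 (SD, n = 3 each), a ratio of 1.98. The 2 groups did not overlap, and the exact binomial 95% interval of the shallowest library, replicate 3 of WT at 48 hr, was 199 to 227. In *snpc-1.3(-)* the share was 289 and 268 unscaled CPM, against the same WT libraries at 48 hr, a ratio of 1.24, with both mutant libraries above all 3 WT libraries. In *snpc-1.3(2xtbs)* it was 406, 425 and 362 unscaled CPM, against the WT libraries at 72 hr, a ratio of 0.899, with all 3 mutant libraries below all 3 of WT. Intervals cover counting error only. MicroRNAs took 59.2%, 57.1% and 62.1% of all counts in WT at 72 hr, against 79.0%, 79.6% and 76.5% in WT at 48 hr. All other features together thus also held a larger share at 72 hr, and the ratio of 1.98 includes that rise.

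**Figure D1:**
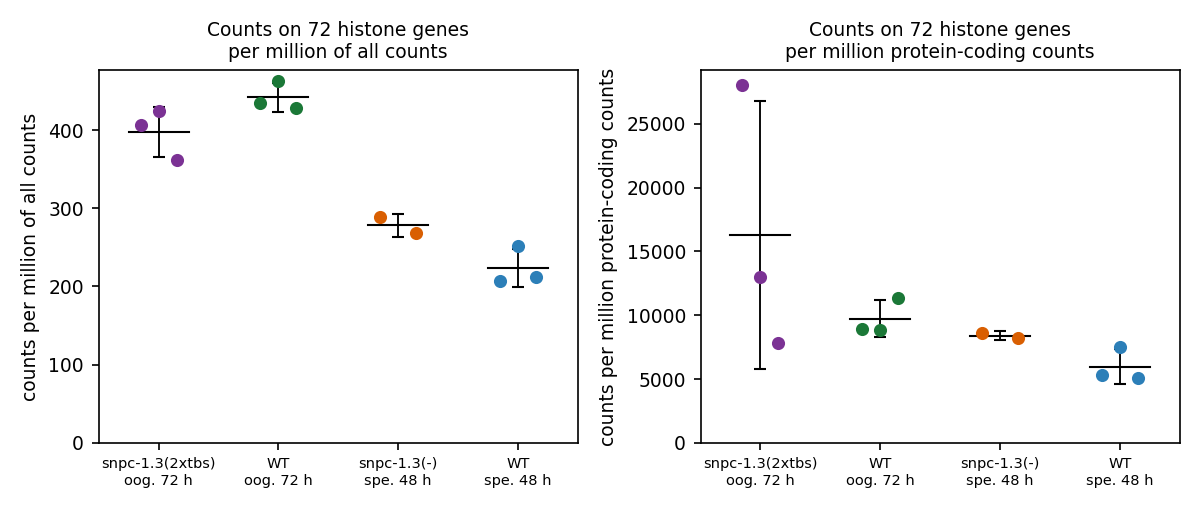
Counts on the 72 histone genes as unscaled CPM of all counts (left) and of the counts on protein-coding genes (right), 1 point per library, with the group mean as a line and the SD as a bar. On the left the 6 libraries at 72 hr lie between 362 and 463 and the 5 at 48 hr between 207 and 289, and on the right replicate 1 of snpc-1.3(2xtbs) lies at 28041, far above all others.

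The order changed with the denominator. As unscaled CPM of the counts on protein-coding genes, histone genes had 28041, 12964 and 7832 in *snpc-1.3(2xtbs)*, against 8927, 8860 and 11380 in WT at 72 hr, a ratio of 1.67 with overlapping groups. Without replicate 1 of *snpc-1.3(2xtbs)*, left out after its value was seen, that ratio was 1.07. On the same scale *snpc-1.3(-)* had 8634 and 8177, and WT at 48 hr had 5297, 7528 and 5100. The ratios were then 1.63 for WT at 72 hr over WT at 48 hr and 1.41 for *snpc-1.3(-)* over WT at 48 hr.

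Levels between genes were compared per kilobase of exon, as mean CPM per kb over the 11 libraries. The class medians were 18.1 for H3, 16.7 for H4, 15.3 for H2A, 8.30 for H2B, 2.37 for H3.3 and 1.54 for H1. The highest gene was *his-25*, an H3 gene of the cluster on II, with 37.7 CPM per kb, followed by *his-9* with 26.9 and *his-13* with 26.5, and the lowest was the H2B gene *his-41* with 0.428. H1 and H3.3, with the least shared sequence, thus had the lowest levels, and since a read is counted once at each reported place, this order includes the number of copies. Of the 72 genes, 69 passed the filter on low counts and were tested. The others, *his-39*, *his-41* and *his-69*, had 64, 24 and 59 counts over all libraries.

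Between the stages, 25 of the 69 tested histone genes were higher and 5 lower in WT at 72 hr than in WT at 48 hr (edgeR's quasi-likelihood test, adjusted p of at most 0.05 over all features and an absolute log2 fold change of at least 0.26). Of all 16968 features tested, 29.1% were higher and 30.2% lower, and of the 6087 protein-coding genes among them 15.3% were higher and 26.7% lower. The genes called higher have 16 distinct coding sequences and those called lower have 3. The median log2 fold change was 0.66 over the histone genes and 0.17 over all features, and it stood 0.47 to 0.53 above that of all features under the scalings and models tried with all libraries, and 0.27 to 0.77 above it with 1 library left out. By class, H2A had 11 of 17 genes higher and none lower, H2B 8 of 15, and H4 5 of 16 with 1 lower, while H3 had none of 15 higher and 3 lower. With library totals or microRNA totals in place of TMM, 54 genes were higher and 1 lower. The median log2 fold change of all features was then 0.77 and 1.17. The share of all features called under these scalings is not given here, so the 54 cannot be set against it. Without replicate 1 or 3 of WT at 48 hr 16 and 14 genes were higher, 9 were lower without replicate 3, and 1 was lower without replicate 2 of WT at 48 hr or any 1 WT library of 72 hr.

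The largest stage difference was at *his-70* (WBGene00001944, III:4059647-4060172), annotated as an H3.3-like gene, which fell in oogenesis. It had 0.242, 0.319 and 0.234 CPM in WT at 72 hr, against 5.39, 8.89 and 6.09 CPM in WT at 48 hr, from 4, 6 and 3 counts against 28, 74 and 30. Every library at 72 hr was far below every one at 48 hr. The log2 fold change was −4.62 ± 0.46 (SE) with an adjusted p of 4.7e-07, and it kept its call under all 14 alternatives. Of the 22-nt windows in the coding sequence of *his-70*, 97.1% occurred at 1 place in the genome and none at more than 5, so that it shares little sequence with other histone genes.

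The other H3.3 genes did not share this pattern. *his-72* (III:12367474-12369050), one of the main H3.3 genes, had 1.69, 0.957 and 2.49 CPM in WT at 72 hr, against 0.770, 0.601 and 0.609 CPM in WT at 48 hr. It was higher by a log2 fold change of 1.35 ± 0.54 (SE, adjusted p = 0.039), a call that was lost without any 1 of 5 of the 6 libraries, at adjusted p-values of 0.050 to 0.13, and in DESeq2. *his-71*, the other main H3.3 gene, had 1.03, 1.38 and 2.1 CPM in WT at 72 hr, against 1.54, 3.13 and 1.63 CPM in WT at 48 hr, and *his-74* had 0.665, 0.372 and 0.701 CPM, against 0.385, 0.841 and 0.406 CPM. The groups overlapped for both, and neither passed the test. *his-69*, which lies beside *his-70* on III and was not tested, had 0.604, 0.319 and 0.467 CPM in WT at 72 hr, against 0.192, 0.481 and 0.406 CPM in WT at 48 hr, so the high level of *his-70* at 48 hr was not seen in its neighbour, which had 59 counts in all.

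Among the H2A and H2B genes, which form a dimer in the nucleosome, those of chromosome V were higher in oogenesis. *his-52* (H2B, WBGene00001926, V:8850464-8850835) had 2.84, 3.3 and 3.04 CPM in WT at 72 hr, against 0.770, 0.962 and 0.813 CPM in WT at 48 hr. The groups lay well apart, with a log2 fold change of 1.82 ± 0.37 (SE, adjusted p = 0.00043). *his-20*, *his-22* and *his-54*, with the same coding sequence, were higher by 1.23, 1.24 and 1.21 on the log2 scale. Of the 22-nt windows of that sequence, 84.0% occurred at more than 5 places, and a read was reported at up to 5 only. The H2A gene *his-21* had 7.68, 6.65 and 9.65 CPM in WT at 72 hr, against 3.46, 2.88 and 2.03 CPM in WT at 48 hr, and was higher by 1.50 ± 0.36 (log2, SE, adjusted p = 0.0018). *his-53*, *his-19* and *his-51*, whose coding sequence is that of *his-21*, were higher by 1.58, 1.49 and 1.47 on the log2 scale. The calls of *his-52* and of these 4 H2A genes held under all 14 alternatives, but the 4 H2A genes share their reads and stand for 1 sequence. In all, 12 of the 13 tested H2A and H2B genes of V were called higher, with a median log2 fold change of 1.24. They include the 4 H2A and the 4 H2B genes with a shared coding sequence, and so stand for fewer sequences than genes.

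H3 and H4 genes of the cluster on II went the other way under TMM. *his-25* (H3, WBGene00001899, II:13824686-13825294) had 9.19, 8.40 and 8.95 CPM in WT at 72 hr, against 12.9, 22.7 and 11.6 CPM in WT at 48 hr. The groups did not overlap, the spread at 48 hr came mostly from replicate 2, and the log2 fold change was −0.84 ± 0.28 (SE, adjusted p = 0.0135). *his-13* and *his-9*, with the same coding sequence, were lower, with log2 fold changes of −0.94 and −0.91, and *his-26*, a neighbouring H4 gene, with −0.86. None of the 4 calls held without replicate 2 of WT at 48 hr or without any 1 WT library of 72 hr, at adjusted p-values of 0.056 to 0.17. Under library totals fixed to microRNAs the 4 log2 fold changes turned to 0.11 to 0.19. *his-10* and *his-14*, with the coding sequence of *his-26*, had log2 fold changes of −0.42 each and were not called (adjusted p = 0.26 and 0.25). Nor was *his-42*, the remaining H3 gene of the cluster, at −0.62 (adjusted p = 0.054). The 14 histone genes of II had a median log2 fold change of −0.42, which lay 0.53 to 0.63 below that of all features under the scalings and models tried with all libraries, and 0.37 to 0.92 below it with 1 library left out. The sign of the change depended on the scaling, and the place below other features did not.

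**Figure D2:**
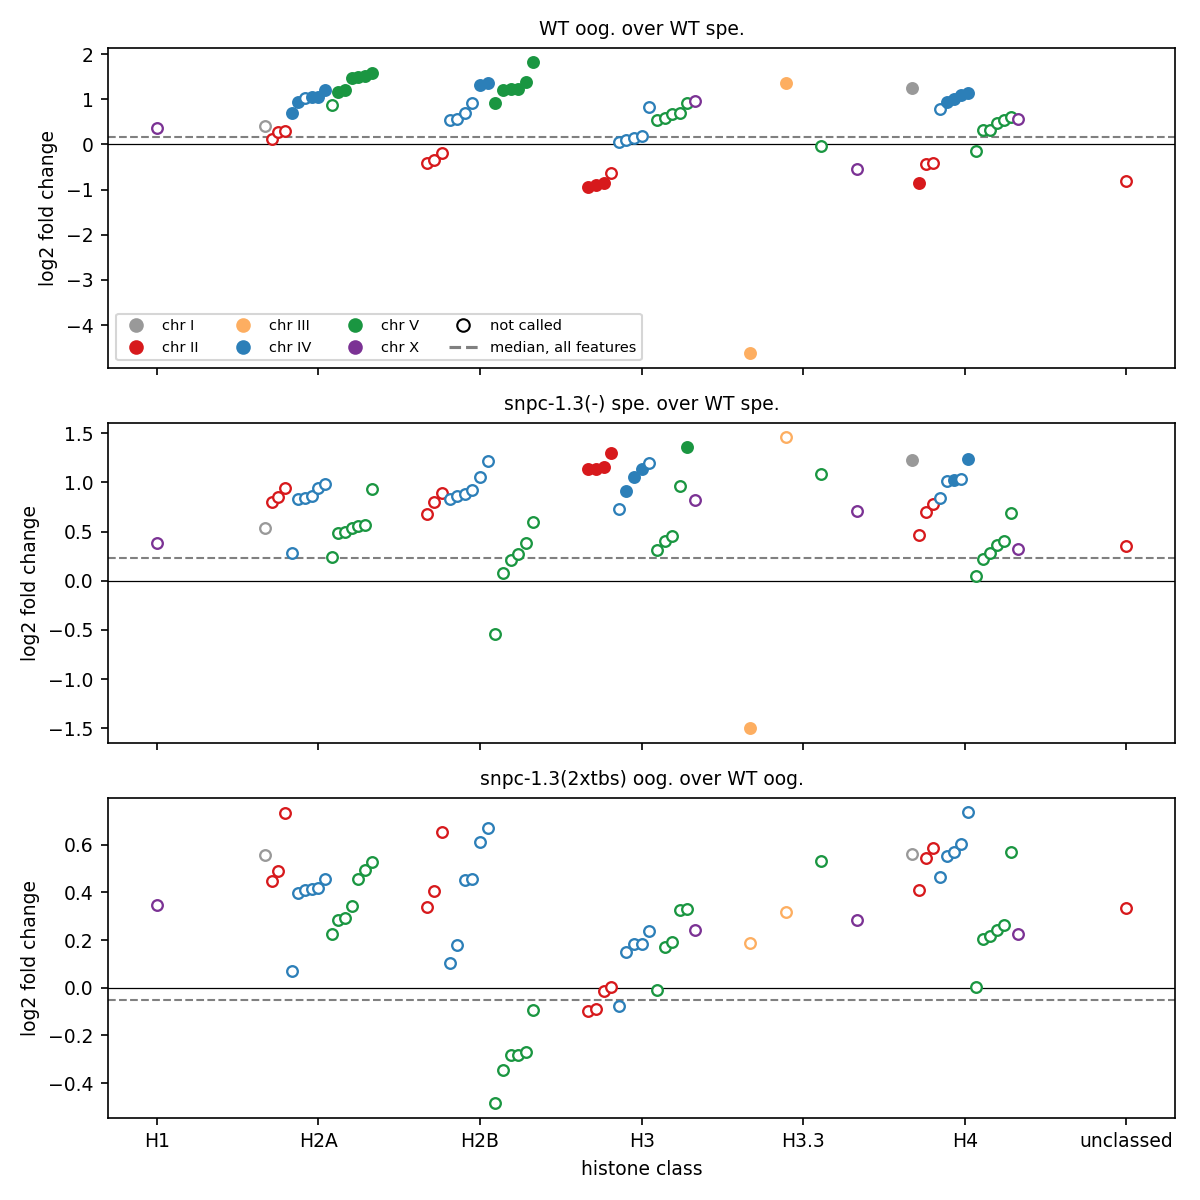
Log2 fold change (y axis) of each of the 69 tested histone genes by class (x axis) in the 3 comparisons, coloured by chromosome, with called genes filled and the median of all 16968 features as a dashed line. In the top panel the genes of II lie lowest within H2A, H2B and H3, H2A and H2B of V and IV lie highest, and his-70 stands alone at −4.62. In the middle panel the filled points are mostly H3, and in the bottom panel no point is filled.

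The most abundant gene of each class showed the same unevenness. *his-57* (H2A, IV) had 10.2, 10.9 and 14.1 CPM in WT at 72 hr, against 5.00, 9.74 and 6.50 CPM in WT at 48 hr, and was higher by 0.71 ± 0.29 (log2, SE, adjusted p = 0.043). That call was lost without replicate 1 or 3 of WT at 48 hr (adjusted p = 0.20 and 0.14) without replicate 3 of WT at 72 hr (0.12) and in DESeq2 (0.12). *his-66* (H2B, IV) had 3.44, 3.77 and 3.89 CPM in WT at 72 hr, against 1.54, 3.13 and 2.84 CPM in WT at 48 hr, and *his-60* (H4, IV) had 6.16, 6.43 and 10.1 CPM, against 5.58, 5.53 and 1.83 CPM. Both groups of values lay apart for each gene, but neither passed the test (adjusted p = 0.24 and 0.072). *his-66* passed it in 2 and *his-60* in 6 of 14 alternatives, and the log2 fold change of *his-60* ran from 0.38 to 1.04 with 1 library left out. The linker histone gene *his-24* (X:14490094-14491115) had 1.33, 1.17 and 1.71 CPM in WT at 72 hr, against 0.962, 1.20 and 1.02 CPM in WT at 48 hr, with overlapping groups and an adjusted p of 0.46. It overlaps another annotated feature, as do 11 other histone genes. None of these features is a piRNA.

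Shares within the histone genes do not depend on how libraries are scaled. The 4 H3 genes of II took 9.29%, 9.25% and 7.23% of histone counts in WT at 72 hr, against 17.4%, 21.4% and 19.1% in WT at 48 hr. The 15 H2A and H2B genes of V took 23.3%, 21.5% and 19.6% in WT at 72 hr, against 12.2%, 10.1% and 11.5% in WT at 48 hr. The ratio of the counts of the H3 genes of II to those of the H2A and H2B genes of V was 0.399, 0.431 and 0.370 in WT at 72 hr, against 1.43, 2.13 and 1.66 in WT at 48 hr. Which of these sets had more small RNA counts thus differed between the stages in every library. Under TMM their median stage log2 fold changes were already −0.87 (H3 of II), 1.47 (H2A of V) and 1.23 (H2B of V). The ratio restates that difference for sets that stood apart in it, and is no separate support. The 5 H3.3 genes took 1.46%, 1.14% and 1.58% in WT at 72 hr, against 3.66%, 4.35% and 4.89% in WT at 48 hr, with *his-70* as their largest member at 48 hr.

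**Figure D3:**
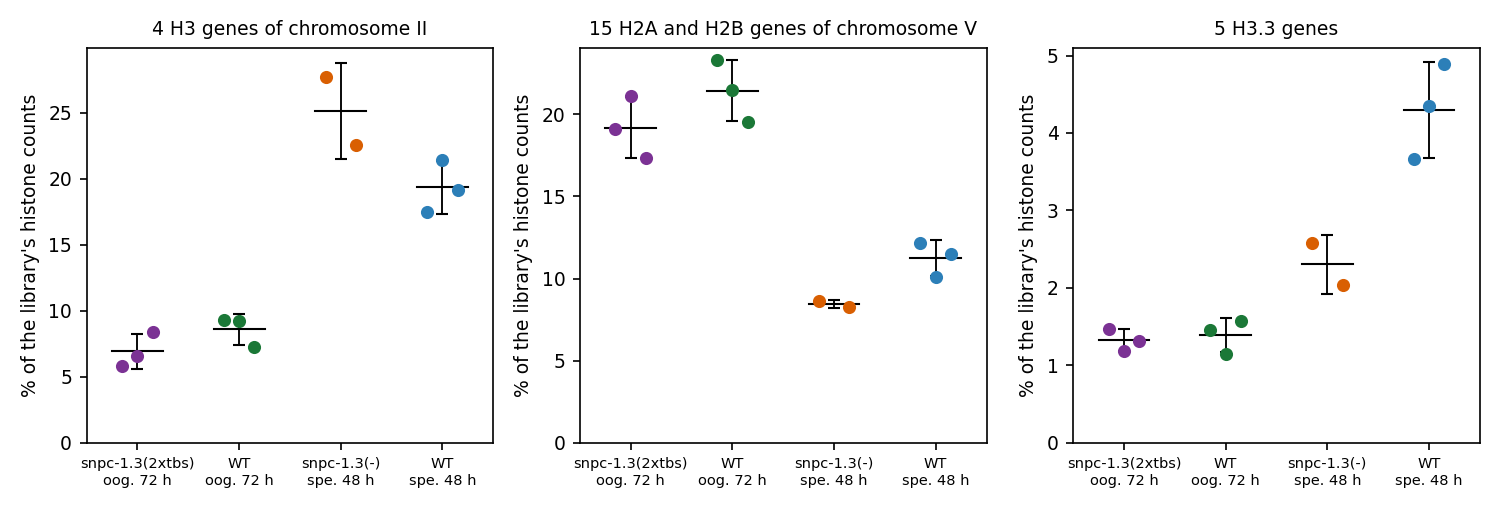
Percent of each library's histone counts (y axis) taken by the 4 H3 genes of chromosome II, the 15 H2A and H2B genes of V and the 5 H3.3 genes, 1 point per library, with the group mean as a line and the SD as a bar. At 48 hr the H3 genes of II take 17.4% to 27.7% and at 72 hr 5.81% to 9.29%. The snpc-1.3(-) libraries lie above WT at 48 hr for these genes and below it for the other 2 sets.

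In *snpc-1.3(-)* at 48 hr, 11 of the 69 histone genes were higher and 1 was lower than in WT at 48 hr, where 18.6% of all features were higher and 17.5% lower, and 2.55% of protein-coding genes were higher and 2.12% lower. The comparison shares its WT libraries with that of the stages. The genes called higher were 8 H3 and 3 H4 genes, with 8 distinct coding sequences, and no H2A or H2B gene was called. The class medians of the log2 fold change were 0.80 for both H2A and H2B, 1.05 for H3 and 0.70 for H4, and the difference between classes was not tested. The median log2 fold change was 0.80, against 0.23 over all features and 0.06 over protein-coding genes. Of the 69 genes 67 had a positive value, as had 9788 of all 16968 features and 3227 of the 6087 protein-coding genes. Histone genes that share reads are not independent values in this count.

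The 4 H3 genes of the cluster on II were among those higher in the mutant. *his-42* (WBGene00001916, II:13828287-13828697) had 27.1 and 20.5 CPM in *snpc-1.3(-)*, against 8.08, 12.6 and 7.92 CPM in WT at 48 hr. Both mutant libraries exceeded all 3 of WT, with a mean of 23.8 ± 4.69 (SD, n = 2) against 9.54 ± 2.67 (SD, n = 3) and a log2 fold change of 1.3 ± 0.29 (SE, adjusted p = 0.0016). *his-25* had 39.9 and 30.2 CPM in *snpc-1.3(-)*, against 12.9, 22.7 and 11.6 CPM in WT at 48 hr, and was higher by 1.14 ± 0.30 (log2, SE, adjusted p = 0.0052). *his-13* and *his-9* were higher by 1.16 and 1.14 (log2). These 4 genes hold the first of the printed stretches in common and share reads.

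Outside that cluster, the H4 gene *his-46* (IV:11326018-11326329) had 7.19 and 8.73 CPM in *snpc-1.3(-)*, against 4.23, 3.49 and 2.44 CPM in WT at 48 hr, and was higher by 1.23 ± 0.35 (log2, SE, adjusted p = 0.0091). It was also one of those higher in oogenesis, with 6.04, 6.65 and 9.26 CPM in WT at 72 hr. *his-52*, the H2B gene with the smallest stage p, had 1.39 and 1.25 CPM in *snpc-1.3(-)*, against 0.770, 0.962 and 0.813 CPM in WT at 48 hr, without passing the test.

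The size of the rise depended on the scaling. TMM factors spanned 0.63 to 1.59, and with library totals or microRNA totals in their place none of the 11 genes was called. *his-42* then had log2 fold changes of 0.78 (adjusted p = 0.060) and 0.73 (adjusted p = 0.115). Without replicate 1 of *snpc-1.3(-)* 4 genes were called and *his-25*, *his-13* and *his-9* were not (adjusted p = 0.076, 0.090 and 0.067), without replicate 2 *his-46* was not (adjusted p = 0.10), and without replicate 3 of WT at 48 hr 6 were called. The histone median stood 0.49 to 0.81 above that of all features under the scalings and models tried with all libraries, and 0.33 to 0.71 above it with 1 library left out. On the scale-free measure, the H3 genes of II took 27.7% and 22.6% of histone counts in *snpc-1.3(-)*, against 17.4%, 21.4% and 19.1% in WT at 48 hr, and H2A and H2B of V took 8.65% and 8.29%, against 12.2%, 10.1% and 11.5%. The ratio between these sets was 3.20 and 2.72 in *snpc-1.3(-)*, above all 3 WT libraries of 48 hr.

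*his-70* was the only histone gene called lower in *snpc-1.3(-)*. It had 2.32 and 2.49 CPM in *snpc-1.3(-)*, against 5.39, 8.89 and 6.09 CPM in WT at 48 hr, from 10 and 18 counts against 28, 74 and 30. The groups lay apart, and the level in the mutant was between those of WT at 48 hr and WT at 72 hr. The log2 fold change was −1.50 ± 0.46 (SE, adjusted p = 0.0145), a call that was lost without replicate 2 of WT at 48 hr (adjusted p = 0.061) and without replicate 1 or 2 of *snpc-1.3(-)* (0.099 and 0.094), while its value stayed between −1.66 and −1.27 in these and the other fits with 1 library left out. The other H3.3 genes had values that ran the other way or overlapped, such as *his-72* with 2.55 and 1.25 CPM in *snpc-1.3(-)*, against 0.770, 0.601 and 0.609 CPM, and *his-71* with 3.48 and 3.60 CPM, against 1.54, 3.13 and 1.63 CPM. *his-74* had 2.55 and 0.277 CPM, against 0.385, 0.841 and 0.406 CPM, with the mutant libraries on either side of WT. None of these 3 passed the test. The linker gene *his-24* had 1.62 and 1.25 CPM in *snpc-1.3(-)*, against 0.962, 1.20 and 1.02 CPM in WT at 48 hr, and was not called.

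**Figure D4:**
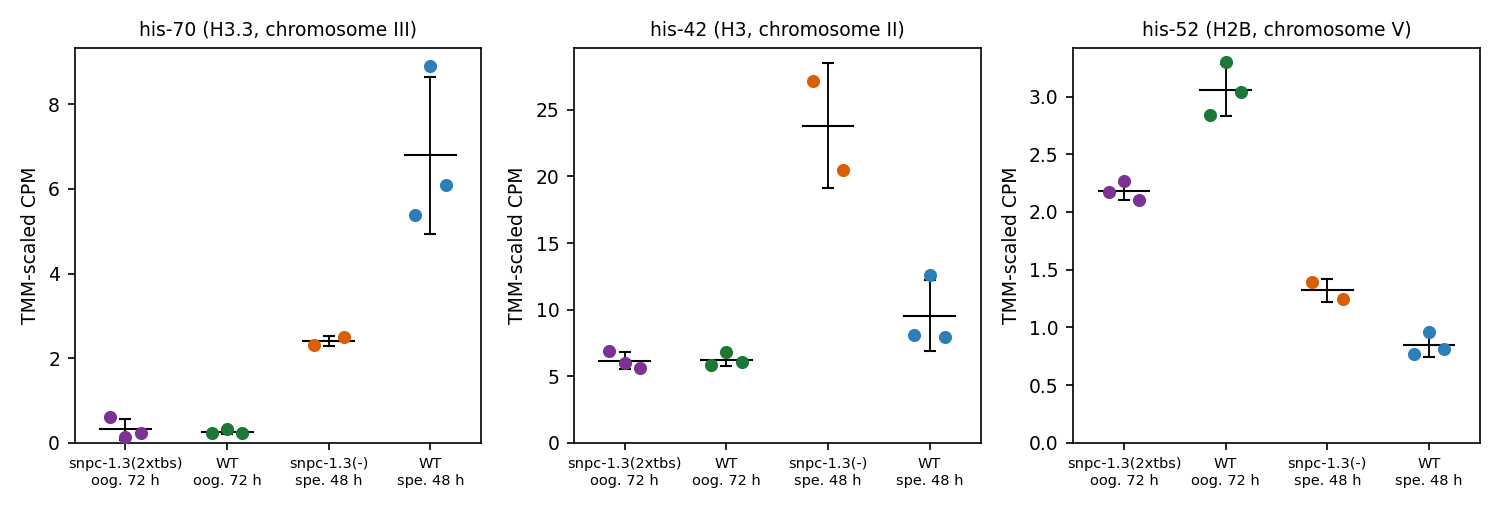
CPM scaled by TMM (y axis) of his-70, his-42 and his-52 in the 4 groups, 1 point per library, with the group mean as a line and the SD as a bar. his-70 lies at 5.39 to 8.89 in WT at 48 hr, 2.32 and 2.49 in snpc-1.3(-) and below 0.6 in all libraries at 72 hr, his-42 is highest in snpc-1.3(-), and his-52 is highest in WT at 72 hr.

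In *snpc-1.3(2xtbs)* at 72 hr, none of the 69 histone genes was called against WT at 72 hr by edgeR or by DESeq2. Among all features 6.58% were called higher and 0.395% lower by edgeR, and among protein-coding genes 0.23% and 0.214%. An unadjusted edgeR p under 0.05 at that fold was seen in 2 of the 69 histone genes. It was seen in 3260 of all 16968 features and in 429 of the 6087 protein-coding genes. This comparison shares its WT libraries with that of the stages. The median log2 fold change was 0.33, against −0.05 over all features. Its sign was not stable, with −0.14 under library totals and −0.32 under microRNA totals, but it stood 0.32 to 0.45 above the median of all features under the scalings and models tried with all libraries. Without replicate 3 of *snpc-1.3(2xtbs)* 8 genes were called higher, with a median of 0.68, against 0.12 over all features, whose called share is not given here. Without the outlying replicate 1 none was called, the median was 0.08, and the distance to the median of all features was also 0.08, the lowest of 0.08 to 0.56 with 1 library left out.

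The named genes lay near WT or differed without passing the test. *his-70* had 0.598, 0.137 and 0.226 CPM in *snpc-1.3(2xtbs)*, against 0.242, 0.319 and 0.234 CPM in WT at 72 hr, from 11, 2 and 3 counts against 4, 6 and 3, so that a difference of moderate size was not detectable at this depth. *his-42* had 6.91, 5.98 and 5.65 CPM in *snpc-1.3(2xtbs)*, against 5.86, 6.80 and 6.07 CPM in WT at 72 hr, with overlapping groups. *his-52* had 2.18, 2.27 and 2.11 CPM, against 2.84, 3.3 and 3.04 CPM, and *his-66*, an H2B gene of IV, had 7.02, 6.87 and 3.76 CPM, against 3.44, 3.77 and 3.89 CPM. The 3 libraries of *his-52* lay below those of WT, and those of *his-66* overlapped with WT through replicate 3. The H3 genes of II took 5.81%, 6.58% and 8.37% of histone counts in *snpc-1.3(2xtbs)*, against 9.29%, 9.25% and 7.23% in WT at 72 hr, also with overlap.

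Since most histone genes share reads, the 10 with at least 75% of their windows at 1 place in the genome were read on their own. They were *his-24*, *his-35*, *his-37*, *his-41*, *his-67*, *his-69*, *his-70*, *his-71*, *his-72* and *his-74*, and 8 of them were tested. In WT at 72 hr over WT at 48 hr, 3 were higher (*his-35*, an H2A gene, *his-67*, an H4 gene, and *his-72*) and *his-70* was lower, a number too small to set apart from the 29.1% and 30.2% of all features. In *snpc-1.3(-)* over WT at 48 hr, *his-67* was higher and *his-70* lower, where 18.6% and 17.5% of all features were, and in *snpc-1.3(2xtbs)* over WT at 72 hr none was called. *his-70* thus had the largest change in each of the first 2 comparisons among the genes whose reads can mostly be traced to 1 place.

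**Figure D5:**
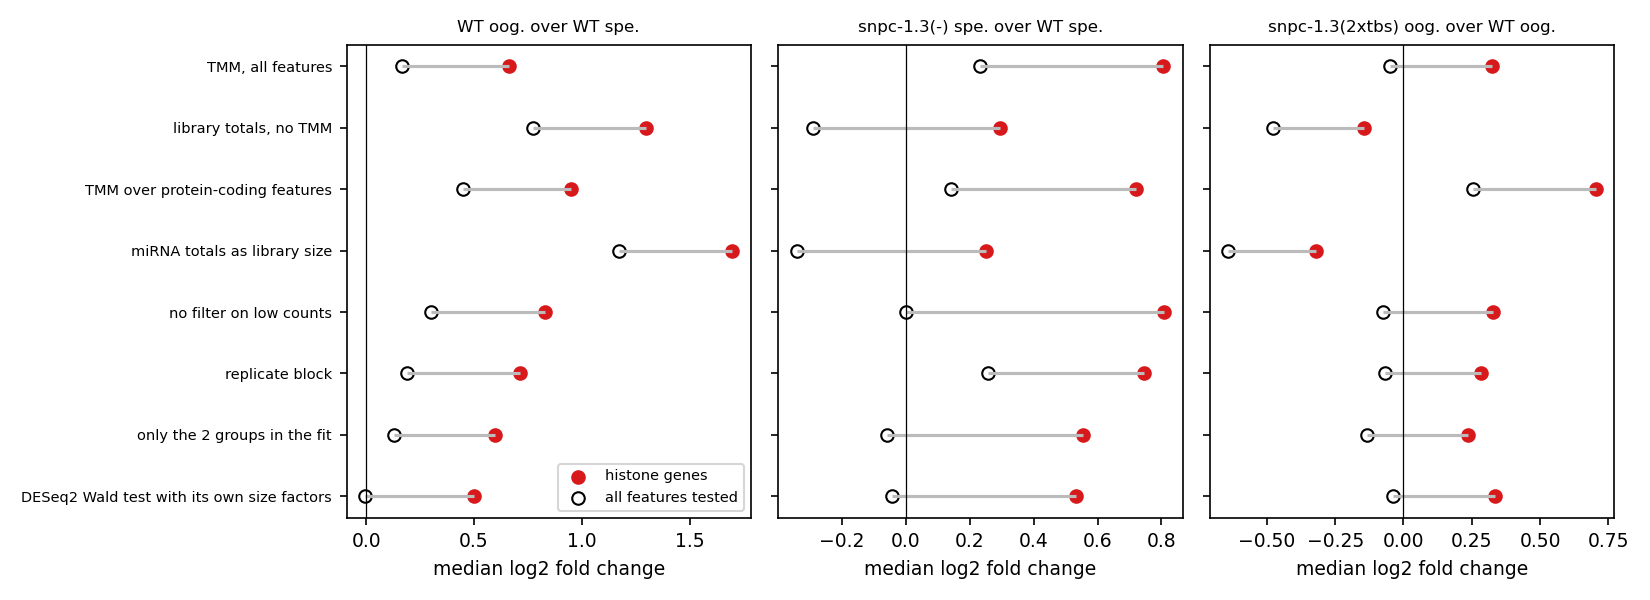
Median log2 fold change (x axis) of the histone genes (filled) and of all features tested (open) under each scaling and model (y axis), in the 3 comparisons. Both points move together, and the histone median lies to the right of that of all features under the settings drawn, by 0.47 to 0.53, 0.49 to 0.81 and 0.32 to 0.45. With 1 library left out, which is not drawn, the distances were 0.27 to 0.77, 0.33 to 0.71 and 0.08 to 0.56.

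The factors whose strains were compared were also mapped on chromatin by ChIP-seq, which the choice of histone genes did not use. For SNPC-1.3 at 48 hr, the deposited 1-kb bins were read as log2 IP over input in the tagged strain minus the same in untagged N2. In replicate 1 the 22 bins over 20 histone genes had a median difference of −0.03, against −0.02 over all 25213 bins, and in replicate 2 the 28 bins over 24 histone genes had 0.04, against −0.03 over 26052 bins. Single bins over histone genes ran from −0.31 to 0.41 in replicate 1 and from −0.16 to 0.34 in replicate 2. Their medians lay within the interquartile range of all bins, −0.12 to 0.08 in both replicates. The bin III:4059001-4060000 over *his-70* had 0.24 and 0.16, above that range in each, with no test. A further bin over *his-70* (III:4060001-4061000) was listed only in replicate 2, with 0.14. The range ends at the upper quartile, so many other bins lie above it by definition. How many do so in both replicates was not counted, and the values of *his-70* cannot be set apart from these. Bins were listed only where the IP passed a coverage minimum, and reads of low mapping quality, such as those that fit several places, had been removed.

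For TRA-1 at 72 hr, 31 and 29 of the 72 histone genes had a deposited peak over the gene or within 500 bp upstream in the 2 replicates of tagged TRA-1, against 32 and 31 in untagged N2. Of all protein-coding genes, 45.7% and 46.9% had one in tagged TRA-1, and 37.6% and 42.1% in N2. At a −log10 q of at least 5 the numbers were 29 and 27 in tagged TRA-1, against 17 and 18 in N2, where 42.4% and 43.1% of protein-coding genes had such a peak in tagged TRA-1, and 8.09% and 16.5% in N2. The 3 tagged strains with 1, 2 or 3 mutated TRA-1 sites at *snpc-1.3* had 27 to 32. Of protein-coding genes, 42.7%, 47%, 43.4%, 44%, 41.1% and 43.1% had one in their 6 lists. A total of 26 histone genes had a peak in both replicates of tagged TRA-1, 22 of these also had one in both of N2, and only *his-16* had none in N2, named here after its values were seen. Such counts over both replicates were not made for all protein-coding genes, so these cannot be set apart from the share at other genes.

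Of the 22 genes with a peak in both replicates of each, 21 had a higher fold enrichment in both tagged replicates than in either of N2. Over the 31 genes with a peak in at least 1 replicate of each, these numbered 24, while *his-3*, *his-4*, *his-31* and *his-32*, each with a peak in 1 tagged replicate, were lower with the tag and 3 genes overlapped. Neither count was made over all protein-coding genes, so they cannot be set apart from a difference between the tagged and N2 lists at other genes. The peak at *his-67* and *his-68* (H4 and H2A), singled out after its values were seen, had a fold enrichment over input of 25.4 and 21.4 in tagged TRA-1, against 5.16 and 4.21 in N2. That at *his-42* had 9.44 and 10.5, against 2.34 and 2.50, that at *his-72* 4.41 and 5.41, against 2.08 and 2.09, and that at *his-24* 3.60 and 4.78, against 2.49 and 2.08. *his-70* had no peak in either. By chromosome, 13 and 14 of the 22 genes of IV had a peak in tagged TRA-1, 8 and 6 of the 27 of V, and 2 and 3 of the 14 of II. The N2 lists also held more histone genes of IV than of V or II. Shares of all protein-coding genes by chromosome were not counted, so this order cannot be read as particular to histone genes. Reads of low mapping quality had been removed here too, so that a copy with much shared sequence can lack a peak, which was not tested. Peaks were called per replicate and with a permissive threshold. Neighbouring genes can share one, as *his-59*, *his-60*, *his-61* and *his-62* of IV did in both tagged replicates.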

How the data were processed

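The authors trimmed small RNA reads with Trimmomatic 0.39, kept those of 15 to 30 nt, aligned them to WBcel235 with Bowtie 1.1.1 (no mismatch, up to 5 places) and counted them with featureCounts (Subread 1.6.3), allowing multiple places and overlapping features, so that copies share reads. The strand setting is not given in the sources used here, so sense and antisense reads cannot be told apart. The deposited raw counts were used for all small RNA values. For ChIP, the deposited CPM in 1-kb bins and counts of IP and input were used, and the deposited TRA-1 peaks (MACS2 2.1.2) gave fold enrichment and −log10 q per the authors. The authors' normalised counts were not used.

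Counts were fitted in R 4.3.3 with edgeR 4.0.16 (TMM over 16968 features passing filterByExpr, quasi-likelihood test, 4 groups and 11 libraries in one fit, Benjamini-Hochberg over all features). DESeq2 1.42.0, other scalings, fold thresholds, no filter, a replicate block, fits of 2 groups and leaving out each library were alternatives. Scripts were tested on simulated data. Histone classes follow RefSeq product names, and sequences were read from the RefSeq genome (WBcel235). Named genes were the highest of each class by mean CPM, the H1 and H3.3 genes, and up to 5 called genes per direction with the smallest adjusted p, and others are named where a count was small. The members and lists were chosen with earlier results of these data known.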

Additional observations from a re-analysis of the deposited data

How the results depend on the processing

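For WT at 72 hr over WT at 48 hr, library totals gave 54 histone genes higher, 1 lower and a median of 1.3, microRNA totals 54, 1 and 1.70, and TMM over protein-coding features 1 lower and a median of 0.95. The medians of all features were then 0.77, 1.17 and 0.45. A fold threshold of 1 and no filter each left 1 lower. Under microRNA totals the log2 fold changes of *his-25* (0.19), *his-13* (0.11), *his-9* (0.13) and *his-26* (0.18) changed sign. For *snpc-1.3(-)* over WT at 48 hr, the genes higher were 0 under library totals (median 0.29) and microRNA totals (median 0.25), 4 with TMM over protein-coding features, and 7 with no filter, with only 2 groups (median 0.55) and in DESeq2 (median 0.53). For *snpc-1.3(2xtbs)* over WT at 72 hr, the medians under these 3 scalings were −0.14, −0.32 and 0.70. With protein-coding counts as denominator the ratios of shares were 1.63, 1.41 and 1.67, the last being 1.07 without replicate 1 of *snpc-1.3(2xtbs)*, a choice made after seeing the data, and at −log10 q of at least 5 the N2 lists held 17 and 18 histone genes. The causes were not tested, but each scaling moved all features as well.

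With 1 library left out, genes higher numbered 14 to 30 and lower 1 to 9 between the stages (median 0.43 to 1.00), 4 to 16 and 0 to 1 in *snpc-1.3(-)* (median 0.52 to 1.02), and 0 to 8 higher and 0 lower in *snpc-1.3(2xtbs)* (median 0.080 to 0.68). The replicate block gave 23 higher and 5 lower between the stages and 7 higher and 1 lower in *snpc-1.3(-)*. Correlations of same-numbered libraries, taken on deviations from group means, ran from −0.31 to 0.28. Deviations within a group of 2 or 3 libraries are tied to each other, so these values cannot show whether the numbers pair the samples. In the refits with all libraries, named genes kept their status, called or not, in 133 cases, lost a call in 31, gained one in 8 and changed sign in 4. With 1 library left out, they kept their status in 93 cases, lost a call in 31 and gained one in 2. Kept status includes *his-24*, *his-60* and *his-66*, which had no call between the stages to keep. Depth limits *his-70* at 72 hr, with 2 to 11 counts per library.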

Other observations

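Histone genes outside the *his-* names were read in the same fit. Between the stages, *hcp-3* and *cpar-1*, the genes of the centromeric H3 variant CENP-A, were higher in WT at 72 hr than in WT at 48 hr by 2.71 ± 0.34 (log2, SE, adjusted p = 4.2e-06) and 2.88 ± 0.56 (adjusted p = 0.00026). Of the H1-like genes, *hil-4* was higher by 1.31 ± 0.43 (adjusted p = 0.014) and *hil-7* lower by −2.84 ± 0.74 (adjusted p = 0.0031). *hil-7* had 3, 5 and 6 counts in WT at 72 hr, against 13, 2 and 21 in WT at 48 hr, with overlap through replicate 2 of WT at 48 hr. *hil-3*, *hil-5*, *hil-6*, *hil-8* and *htz-1*, the H2A.Z gene, were not called. The adjusted p-values of these 9 genes were 0.129 or more in *snpc-1.3(-)* over WT at 48 hr and in *snpc-1.3(2xtbs)* over WT at 72 hr.

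Of 6 genes of the CSR-1 pathway and 22G-RNA synthesis (*csr-1*, *ego-1*, *drh-3*, *ekl-1*, *cid-1* and *rrf-1*), the adjusted p-values were 0.228 to 0.777 between the stages and 0.313 to 1.00 in *snpc-1.3(2xtbs)* (edgeR). In *snpc-1.3(-)* *ekl-1* alone was called, higher by 1.23 ± 0.43 (log2, SE, adjusted p = 0.032). These values are small RNA counts on the genes, not their expression.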
